A study of Homo sapiens with 32 samples.

Results

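The comparison described here was between THP-1 cells that carried S455A ACLY and THP-1 cells that carried wild-type ACLY, both after 3 h with LPS. It took in 8 of the 32 samples of the series, 4 with the S455A form (SA LPS 1 to 4) and 4 with the wild-type form (WT LPS 1 to 4), chosen by their labels alone. THP-1 is a human monocytic leukemia cell line. All 8 samples came from ACLY knockout THP-1 cells into which ACLY had been returned by lentivirus, so the knockout, the vector with its EF promoter and the puromycin selection were shared by both groups. S455A replaces serine 455 with alanine and cannot be phosphorylated there. LPS was given at 100 ng/ml according to the labels, and a lower dose stands in the study's general methods. The labels name 1 line for each form, so other differences between the 2 lines cannot be told apart from the ACLY form, and the spread between samples of 1 line may be partly technical. The same 2 lines without LPS (WT 1 to 4 and SA 1 to 4), the knockout line (KO) and a line with catalytically inactive H760A ACLY (HA) were used only where they are named.

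ACLY (chromosome 17, 41866917 to 41930542 in GRCh38, minus strand) is the cytosolic and nuclear enzyme that splits citrate into acetyl-CoA and oxaloacetate, and its acetyl-CoA feeds fatty acid synthesis, sterol synthesis and histone acetylation. Akt and protein kinase A are known kinases of serine 455. LPS is sensed by TLR4, which drives NF-kB and AP-1 target genes through one adaptor branch and interferon beta through another. Secreted interferon then acts on its receptor, and transcription factors that include STAT2 and IRF9 switch on a large set of antiviral genes through a DNA element called the ISRE, while the GAS element is known from genes typical of interferon gamma.

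RNA was measured by QuantSeq 3′ mRNA sequencing, which reads 1 tag near the 3′ end of each transcript. The 8 libraries held 6504099 to 14750815 reads on genes. Each value below is a normalised read count, that is, the reads of a gene in a library divided by a factor for the size of that library, with factors set jointly over all 32 libraries. Differences are SA LPS minus WT LPS on the log2(count + 1) scale with the standard error (SE) of the limma fit, and a gene was called where its adjusted p was below 0.01. The 12406 genes with a mean of at least 10 counts were tested. All 23 genes of a list of monocyte and myeloid identity passed that minimum, and 20 of 22 markers of other cell types did not.

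SA LPS 1 stood apart from the other 7 libraries and has to be described first. It lay at 176.89 on the first principal component of the 8 libraries, which held 78.37% of the variance, and the others lay between -36.76 and 17.94. It had reads on 13460 genes, and the others on 16832 to 18552. Of its reads, 7.949% were mitochondrial and 8.739% came from ribosomal protein genes, against 3.507 to 7.84% and 13.654 to 15.722% in the others. Of 9576 genes with a mean of at least 50 counts in SA LPS, 4179 were over 2-fold from the mean of the other 3 SA LPS libraries in SA LPS 1, and 441 to 525 were in SA LPS 2, 3 and 4. Among the WT LPS libraries WT LPS 3 was the farthest, with 961 of 9444 such genes. For SA LPS against WT LPS, the number of genes called and the medians of the lists are therefore given with and without SA LPS 1. A difference between SA LPS and WT LPS that is given once for a gene includes SA LPS 1.

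**Figure D1:**
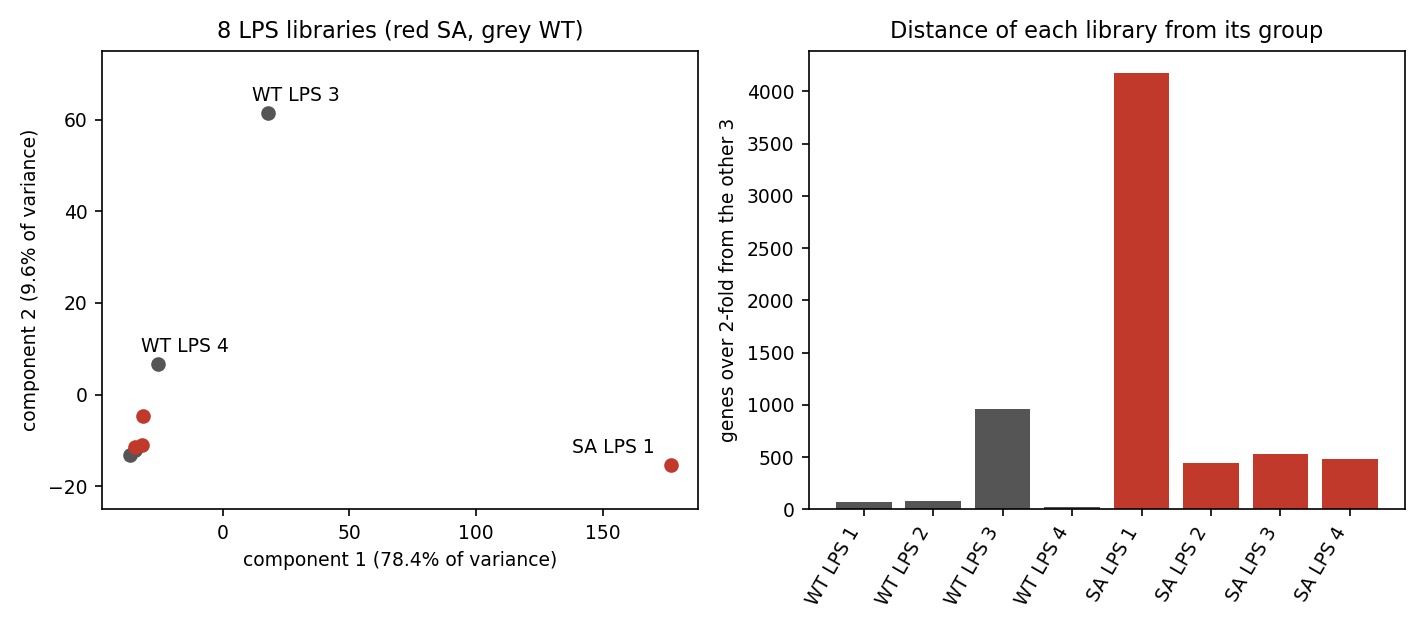
Left, the first 2 principal components of the log2 counts of the 8 LPS libraries, SA in red and WT in grey. Right, bars for the number of genes with a mean of at least 50 counts in the group that were over 2-fold from the mean of the other 3 libraries of the same group. SA LPS 1 lies alone at 176.89 on the first component and has 4179 such genes, and WT LPS 3 has 961.

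Across all genes tested, limma called 0 of 12406 genes between SA LPS and WT LPS (0%), and 0 of 12406 without SA LPS 1 (0%). The smallest adjusted p was 0.516 with all 8 libraries, reached by GBP1 and ATF3, and 0.326 without SA LPS 1, reached by NUDT10 and GBP4. At an unadjusted p below 0.05 there were 646 genes with all 8 libraries, 237 of them higher in SA LPS, and 218 without SA LPS 1, 116 of them higher. Where no gene differs, a share of about 0.05 of the 12406 genes is expected below that limit. voom weights on the recovered reads called 0 genes as well, with 595 and 218 at an unadjusted p below 0.05. A fit that weights each library by its own spread gave SA LPS 1 a weight of 0.056, against 0.411 to 2.505 for the other 7, and called 12 genes, 11 of them higher in SA LPS (0.0887% of all genes tested) and 1 lower (0.00806%). That weighting of libraries was the one setting of the 8-library comparison under which any gene passed. With all 8 libraries, the counts of SA LPS and WT LPS did not overlap for 157 genes that were higher in SA LPS (1.27%) and 167 that were lower (1.35%). For SA LPS 2 to 4 against WT LPS these were 402 (3.24%) and 449 (3.62%).

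Of the 11 higher genes just counted, 7 belong to lists of interferon-induced genes, and the stretches of promoter that carry interferon elements are shown for 6 genes of those lists to let the results be read beside them. They are from RefSeq (GRCh38.p14), written 5′ to 3′ along the strand of the gene and taken from the 250 bases before its start in that table. The gene spans given elsewhere in the text are from GENCODE v44, whose longer transcripts can start further upstream, so that the stretches of GBP1 and IRF1 lie inside the GENCODE span of the gene. Capitals mark the core of the ISRE, GAAANNGAAA on either strand, in the first 5, and the GAS element, TTCNNNGAA, which reads the same on both strands, in IRF1.
GBP1 (chr1:89065316-89065345, minus strand): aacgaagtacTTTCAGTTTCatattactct
IFI44 (chr1:78649759-78649788, plus strand): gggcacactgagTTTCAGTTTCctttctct
EPSTI1 (chr13:42992272-42992301, minus strand): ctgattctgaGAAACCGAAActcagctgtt
TNFSF10 (chr3:172523598-172523627, minus strand): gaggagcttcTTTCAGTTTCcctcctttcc
HERC5 (chr4:88457035-88457064, plus strand): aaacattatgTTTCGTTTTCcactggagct
IRF1 (chr5:132490878-132490907, minus strand): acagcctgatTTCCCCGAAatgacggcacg
The ISRE core begins 18 bases before the start of IFI44, 50 before that of EPSTI1, 127 before that of GBP1 and 187 before that of TNFSF10. HERC5 holds 3 matches, of which the one printed begins 74 bases before the start. Of 27305 promoters in the table, 3.07% hold an ISRE core and 6.78% a GAS element in these 250 bases. Of the 57 measured genes of the interferon-induced antiviral list, 43 are in the table, and 24 of those hold an ISRE core (55.81%) and 10 a GAS element (23.26%). Of the 18 measured genes of the interferon gamma list 14 are in the table, of which 7 hold an ISRE core and 4 a GAS element (28.57%). A match says that the letters are there and nothing about binding in these cells. CXCL11 holds no ISRE core and 1 GAS element, GBP4 holds neither, and IFIT2 was not in the table.

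Interferon-induced antiviral genes were higher in SA LPS than in WT LPS as a group. Of the 57 measured genes, 0 were called in either direction by limma, 54 had a positive difference, and the median difference was 0.50, against 47.9% positive and a median of -0.02 over all genes tested. Without SA LPS 1 there were again 54 positive differences and the median was 0.52, with 51 genes positive both ways. The counts of SA LPS lay wholly above those of WT LPS for 19 of the 57 with all 8 libraries and for 31 without SA LPS 1, and wholly below for 0 of them in either case. Over all genes tested 1.27% and 3.24% lay wholly above. At an unadjusted p below 0.05 there were 29 with all 8 libraries and 28 without SA LPS 1, beside 646 and 218 of all 12406 genes. In the median of the list SA LPS 1 was close to the other 3 SA LPS libraries, although single members were far from them in it, some high and some low. The median over the 57 genes of the log2 distance from the WT LPS mean was 0.55 in SA LPS 1, 0.57 in SA LPS 2, 0.54 in SA LPS 3 and 0.43 in SA LPS 4, and it ran from -0.02 to 0.05 in the 4 WT LPS libraries.

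**Figure D2:**
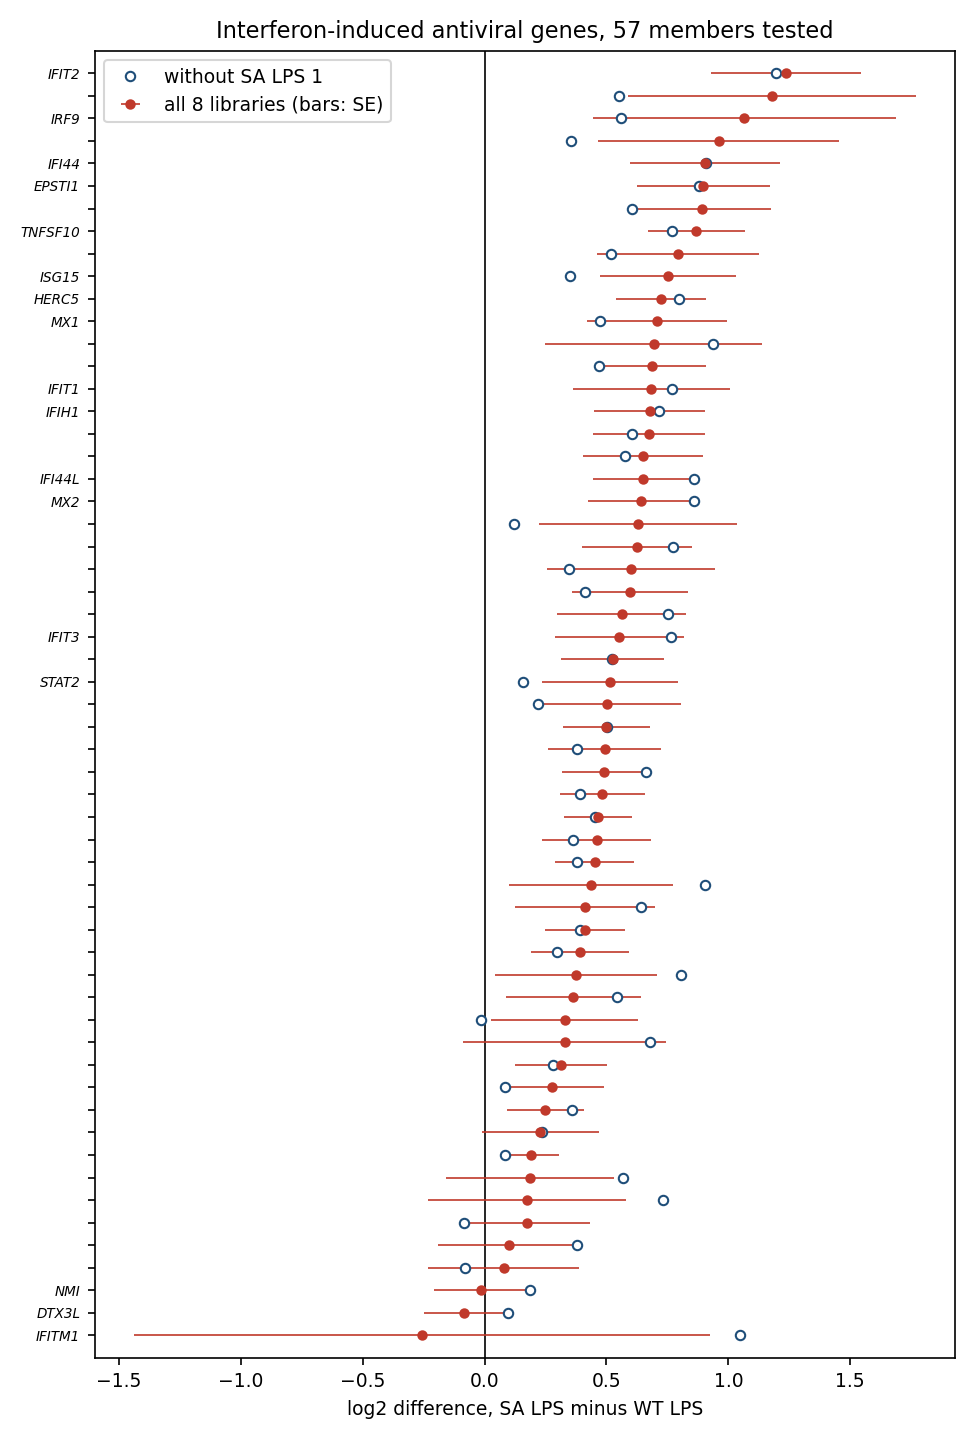
Log2 difference between SA LPS and WT LPS for the 57 measured interferon-induced antiviral genes. Filled points are from all 8 libraries with bars for the SE, and open points are without SA LPS 1, with the genes named in the text labelled. The points of 54 genes lie to the right of 0 with all 8 libraries, and DTX3L, NMI and IFITM1 lie to the left.

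IFIT2, whose product binds foreign RNA and limits translation, was the member with the largest difference. Its counts were 404, 519, 713 and 515 in WT LPS 1 to 4 and 1356, 1345, 1339 and 978 in SA LPS 1 to 4. The lowest SA LPS library was above the highest WT LPS library, and the difference was 1.24 (SE 0.31) with all 8 libraries and 1.20 (SE 0.33) without SA LPS 1, or 2.36-fold and 2.29-fold. IFIT1 and IFIT3 are members of the same family. IFIT1 had 741, 703, 695 and 571 counts in WT LPS and 906.5, 1372, 1172 and 946 in SA LPS, a difference of 0.68 (SE 0.32) without overlap. IFIT3 had 1938, 2019.5, 1525 and 1527 in WT LPS and 1649, 3025.5, 3372 and 2514 in SA LPS, where SA LPS 1 lay among the WT LPS libraries and the other 3 above them. Reads of these related genes could be shared between them, depending on the counting.

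TNFSF10 encodes TRAIL, a ligand that induces apoptosis. It was counted at 419, 407.5, 502 and 423 in WT LPS and 983, 734.5, 868.5 and 646 in SA LPS, with no overlap and a difference of 0.87 (SE 0.20). HERC5, the ligase that attaches ISG15 to proteins, was counted at 331, 359.8, 227.5 and 365 in WT LPS and 448, 507, 597 and 547 in SA LPS, again without overlap, with a difference of 0.72 (SE 0.18) and of 0.80 (SE 0.20) without SA LPS 1. EPSTI1, an interferon-responsive gene, had 260.4, 272, 284 and 251 counts in WT LPS and 517.5, 536, 413 and 533.5 in SA LPS. Each SA LPS library was above each WT LPS library, by a difference of 0.90 (SE 0.27). IFI44 gave 223, 195, 203 and 208 in WT LPS and 383, 407, 398 and 366 in SA LPS, groups that were narrow and apart, with a difference of 0.90 (SE 0.31).

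The paralog of IFI44, IFI44L, was one of the genes whose difference depended on SA LPS 1. Its counts were 738, 650.3, 626 and 702 in WT LPS and 1239, 1266 and 1188.5 in SA LPS 2 to 4, while SA LPS 1 had 684 and lay inside the WT range. The difference was 0.65 (SE 0.20) with that library and 0.86 (SE 0.19) without it. MX2, a dynamin-like GTPase that blocks viruses at the nucleus, was alike, with 307, 411, 317 and 393 in WT LPS and 353, 638, 698 and 597 in SA LPS. Its difference was 0.64 (SE 0.22) with all 8 libraries and 0.86 (SE 0.21) without SA LPS 1. In MX1 and ISG15 it was the reverse. MX1 had 1796, 1984, 2769 and 2319 counts in WT LPS and 5812, 2982.5, 3108 and 3017 in SA LPS, and ISG15, the ubiquitin-like modifier, had 1887, 1516.5, 2041 and 1653 in WT LPS and 6834, 2301, 2102 and 2356 in SA LPS. Both groups were apart with and without SA LPS 1, but the differences of 0.71 (SE 0.29) and 0.75 (SE 0.28) were 0.47 (SE 0.29) and 0.35 (SE 0.23) once SA LPS 1, the highest library of both genes, was left out.

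Sensors and transcription factors of the pathway were on the same side, not all of them without overlap. IFIH1, which encodes the RNA sensor MDA5, had 497, 460.4, 701 and 737 in WT LPS and 869, 945, 1021 and 924 in SA LPS, with no overlap and a difference of 0.68 (SE 0.23). STAT2 overlapped, at 177, 199, 227.5 and 165 in WT LPS and 571, 200.3, 249.6 and 193 in SA LPS, and its difference of 0.51 was 0.16 without SA LPS 1. IRF9, the DNA-binding partner of STAT2, had 13.5, 19.9, 64.5 and 40.4 in WT LPS and 179, 35.3, 67.3 and 34.2 in SA LPS, a wide spread with overlap, and its difference of 1.06 was 0.56 without SA LPS 1. The 3 members with a negative difference with all 8 libraries were DTX3L at -0.085, NMI at -0.013 and IFITM1 at -0.26, and each of them was positive without SA LPS 1, at 0.10, 0.19 and 1.05.

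**Figure D3:**
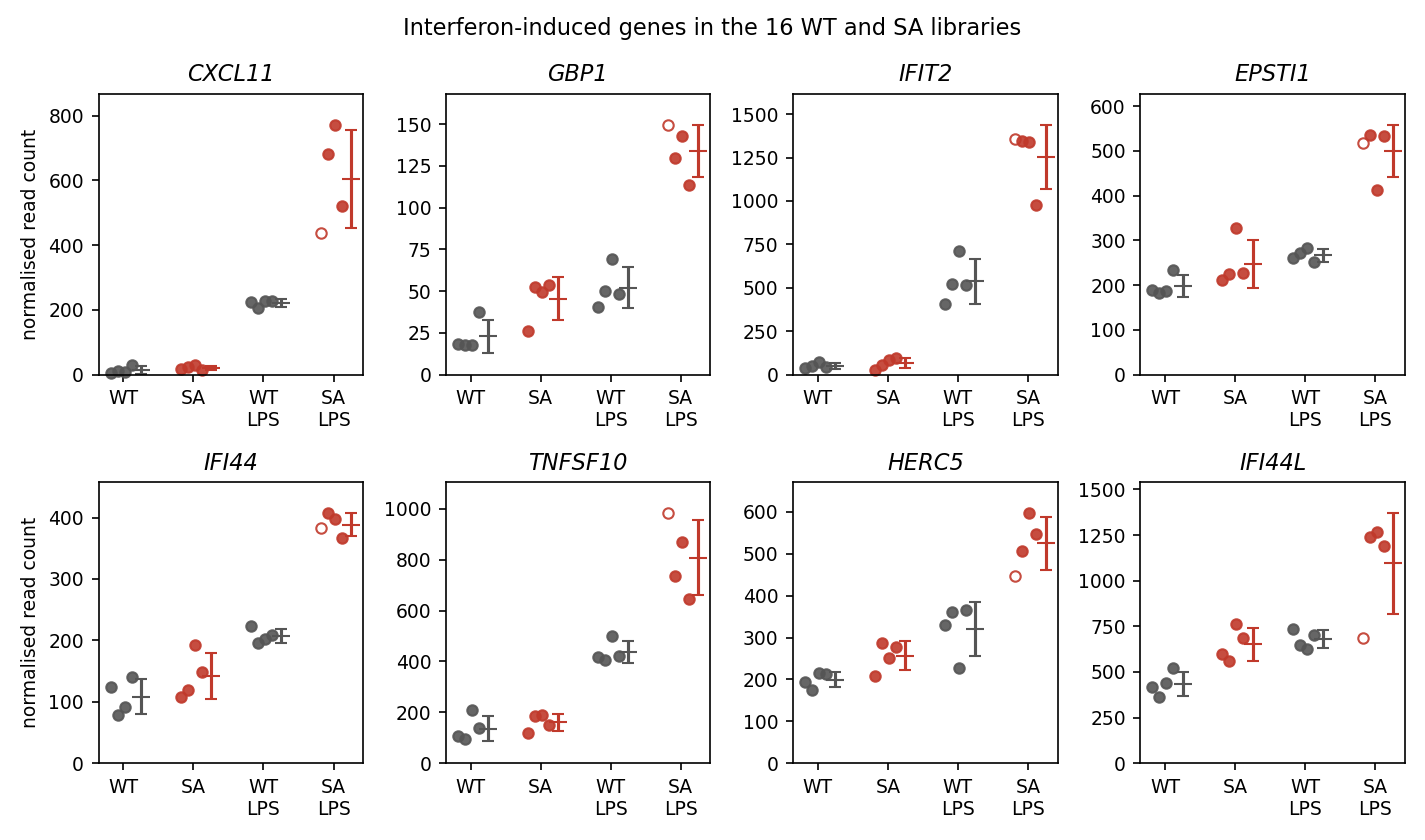
Normalised read counts of 8 interferon-induced genes in the 4 libraries of each of WT, SA, WT LPS and SA LPS. Points are libraries, the open point is SA LPS 1, and the horizontal mark with bars is the mean and SD. For 7 of the genes each SA LPS library is above each WT LPS library, and for IFI44L the open point lies within the WT LPS range.

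Genes typical of interferon gamma, with the chemokines that bind the receptor CXCR3 and the guanylate-binding proteins, also had more positive than negative differences. Of 18 measured genes 0 were called by limma, 14 had a positive difference with all 8 libraries and 15 without SA LPS 1, and the median was 0.47 and 0.54. Over all genes tested 47.9% and 51.9% were positive. The groups did not overlap for 5 with all 8 libraries and for 8 without SA LPS 1, all of them higher in SA LPS, where 1.27% and 3.24% of all genes tested did so. CXCL11 (chromosome 4, 76033682 to 76041415, minus strand), a chemokine that draws activated T cells, had the largest difference of the list. Its counts were 224.5, 205, 227.5 and 228 in WT LPS and 438, 682.5, 772 and 522 in SA LPS. WT LPS was tightly grouped, SA LPS was spread, and the lowest SA LPS library, SA LPS 1, was still above all of WT LPS, so that the difference was 1.41 (SE 0.38) with it and 1.55 (SE 0.40) without it, or 2.66-fold and 2.93-fold. CXCL9 and CXCL10 share that receptor. CXCL9 had 29.9, 42.5, 45.7 and 31.7 in WT LPS and 54.4, 101, 147.5 and 76.1 in SA LPS, with no overlap and a large SE, 1.24 (SE 0.68). CXCL10 had 1998, 1720.3, 927 and 1402 in WT LPS and 1477, 3865, 3529 and 2659 in SA LPS, where SA LPS 1 fell within the WT range and the other 3 were above it.

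GBP1 (chromosome 1, 89051882 to 89065360, minus strand), a GTPase that coats intracellular bacteria, had 40.4, 50.3, 69.2 and 48.3 counts in WT LPS and 149, 129.7, 143 and 114 in SA LPS. The groups were well apart, by 1.37 (SE 0.30) with all 8 libraries and 1.31 (SE 0.32) without SA LPS 1, which is 2.58-fold and 2.48-fold. GBP4 had 103, 175, 149 and 160.1 in WT LPS and 146, 305, 375 and 302 in SA LPS, with SA LPS 1 inside the WT range. GBP5 had 133, 163, 182 and 141 in WT LPS and 468, 248.5, 247 and 187 in SA LPS, where all of SA LPS was above WT LPS and SA LPS 1 was the highest. IRF1, the transcription factor that acts early in this program, had 907, 1049, 1058 and 1116.5 in WT LPS and 2033, 1559.6, 1738 and 1242 in SA LPS, with no overlap and a difference of 0.65 (SE 0.17). CIITA, the coactivator of MHC class II genes, had 15, 14.7, 17.6 and 23 in WT LPS and 98.4, 12.8, 25.5 and 12.8 in SA LPS, and its difference of 0.54 was -0.090 without SA LPS 1.

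The 11 genes higher in SA LPS under the library weights were IFI44L, GBP1, GBP4, IFIT2, TRIM5, TNFSF10, HERC5, MX2, NEXN, NUDT10 and CACNA2D1, and 7 of them are in the interferon lists above. Those lists hold 57 and 18 of the 12406 genes tested. The 82 genes that were higher in both KO and HA than in WT without LPS, described below, include 8 of the 11. The adjusted p-values of the 11, from limma with library weights, were between 0.000994 and 0.00739. TRIM5, a restriction factor of retroviral capsids, had 56.9, 63.3, 97.3 and 54.7 counts in WT LPS and 207, 135.5, 130.0 and 115 in SA LPS, without overlap, and a difference of 1.10 (SE 0.32). NEXN, an actin-binding protein, had 593, 642.5, 510.0 and 559 in WT LPS and 761, 1029.9, 1008 and 939 in SA LPS, also without overlap, and a difference of 0.69 (SE 0.18). The remaining genes had few reads. NUDT10 had 0, 0.9, 1.2 and 1.6 in WT LPS and 0, 8.3, 24.4 and 8.6 in SA LPS, and CACNA2D1, a calcium channel subunit, had 6, 10.4, 12.9 and 9.5 in WT LPS and 9.3, 34.7, 30.2 and 39.3 in SA LPS. In both, SA LPS 1 lay among WT LPS and the other 3 SA LPS libraries above them.

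ATF3, a stress- and LPS-induced repressor related to the AP-1 factors, had the largest positive difference of the immediate early list with all 8 libraries and shared the smallest adjusted p of the 8-library fit. It had 79.3, 154, 90.3 and 136 counts in WT LPS and 249, 207, 253 and 183 in SA LPS, without overlap, and the difference was 0.99 (SE 0.21) with all 8 libraries and 0.93 (SE 0.23) without SA LPS 1. The other members of that list were not alike. Of 16 measured genes 10 had a positive difference with all 8 libraries and 12 without SA LPS 1, against 47.9% and 51.9% of all genes tested. None was called by limma, and the median was 0.20 with all 8 libraries and 0.18 without SA LPS 1. Differences ran from -1.62 to 0.99 with all 8 libraries and from -0.17 to 1.49 without SA LPS 1. FOSL1 had 52.4, 75.4, 51.6 and 71.3 in WT LPS and 0, 46.2, 52.3 and 68.4 in SA LPS, and IER2 had 804, 698, 705 and 657 in WT LPS and 83.4, 671, 741 and 621 in SA LPS. In both genes SA LPS 1 alone was far below, and SA LPS 2 to 4 were in the range of WT LPS or next to it.

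Among LPS-induced cytokines and chemokines no gene was free of overlap with all 8 libraries. Of all genes tested, 1.27% lay wholly above WT LPS and 1.35% wholly below, so none in a list of this size is no result about the list. Only 14 of 31 listed genes reached the count minimum. IL6 was at or below 0.6 counts in all 8 libraries. None of the 14 was called by limma, and 0 had an unadjusted p below 0.05. Their median difference was 0.22 with all 8 libraries and 0.50 without SA LPS 1, when all 14 were positive and 3 did not overlap. Without SA LPS 1, 51.9% of all genes tested were positive and 3.24% lay wholly above WT LPS. The SD of the list's median between libraries of a group was 0.48. CCL2, the chemokine that recruits monocytes, had 537, 631, 50.4 and 277 in WT LPS and 18.5, 778, 793 and 548 in SA LPS. The spread within both groups was larger than the difference between them, with WT LPS 3 and SA LPS 1 both low. CCL3 had 355, 335, 654 and 376 in WT LPS and 2795, 480.3, 466 and 429 in SA LPS, where SA LPS 1 was far above the rest and the other 3 overlapped with WT LPS. CCL4 had 193, 229, 163 and 175 in WT LPS and 85.7, 289, 362 and 248 in SA LPS, and here SA LPS 1 was the lowest of all 8 and the other 3 were above WT LPS. CXCL8, the neutrophil chemokine, was of the same kind at 16.5, 22.5, 9.4 and 11.1 in WT LPS and 2.3, 35.3, 25.5 and 28.2 in SA LPS. IL23A, a subunit of interleukin-23, had 85.3, 47.7, 21.1 and 37.2 in WT LPS and 0, 41.7, 34.8 and 55.6 in SA LPS, where only SA LPS 1 was outside the range of WT LPS.

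IL1B had 209.5, 233, 61 and 122 in WT LPS and 307, 167, 279.8 and 159.9 in SA LPS, and TNF had 824.5, 875, 979 and 750.4 in WT LPS and 1431, 932, 1014 and 770.4 in SA LPS. Both overlapped, with differences of 0.66 (SE 0.38) and 0.24 (SE 0.15). CCL5 was at 1538, 1281, 1419.8 and 1542 in WT LPS and 2355, 1482, 1621 and 1422 in SA LPS, a difference of 0.22 that was 0.063 without SA LPS 1. Of 26 measured NF-kB components and feedback genes, 18 were positive with all 8 libraries and 12 without SA LPS 1, with medians of 0.10 and -0.01 and 0 called. The positive shares over all genes tested were 47.9% and 51.9%. TNFAIP3, the deubiquitinase A20 that ends NF-kB signalling, had 848.5, 982, 1142 and 895 in WT LPS and 1082, 1170.4 and 935 in SA LPS 2 to 4, and 4895 in SA LPS 1. Of 13 measured DUSP, SOCS and ZFP36 family members 0 were called, with a median of -0.02 with all 8 libraries and 0.25 without SA LPS 1.

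**Figure D4:**
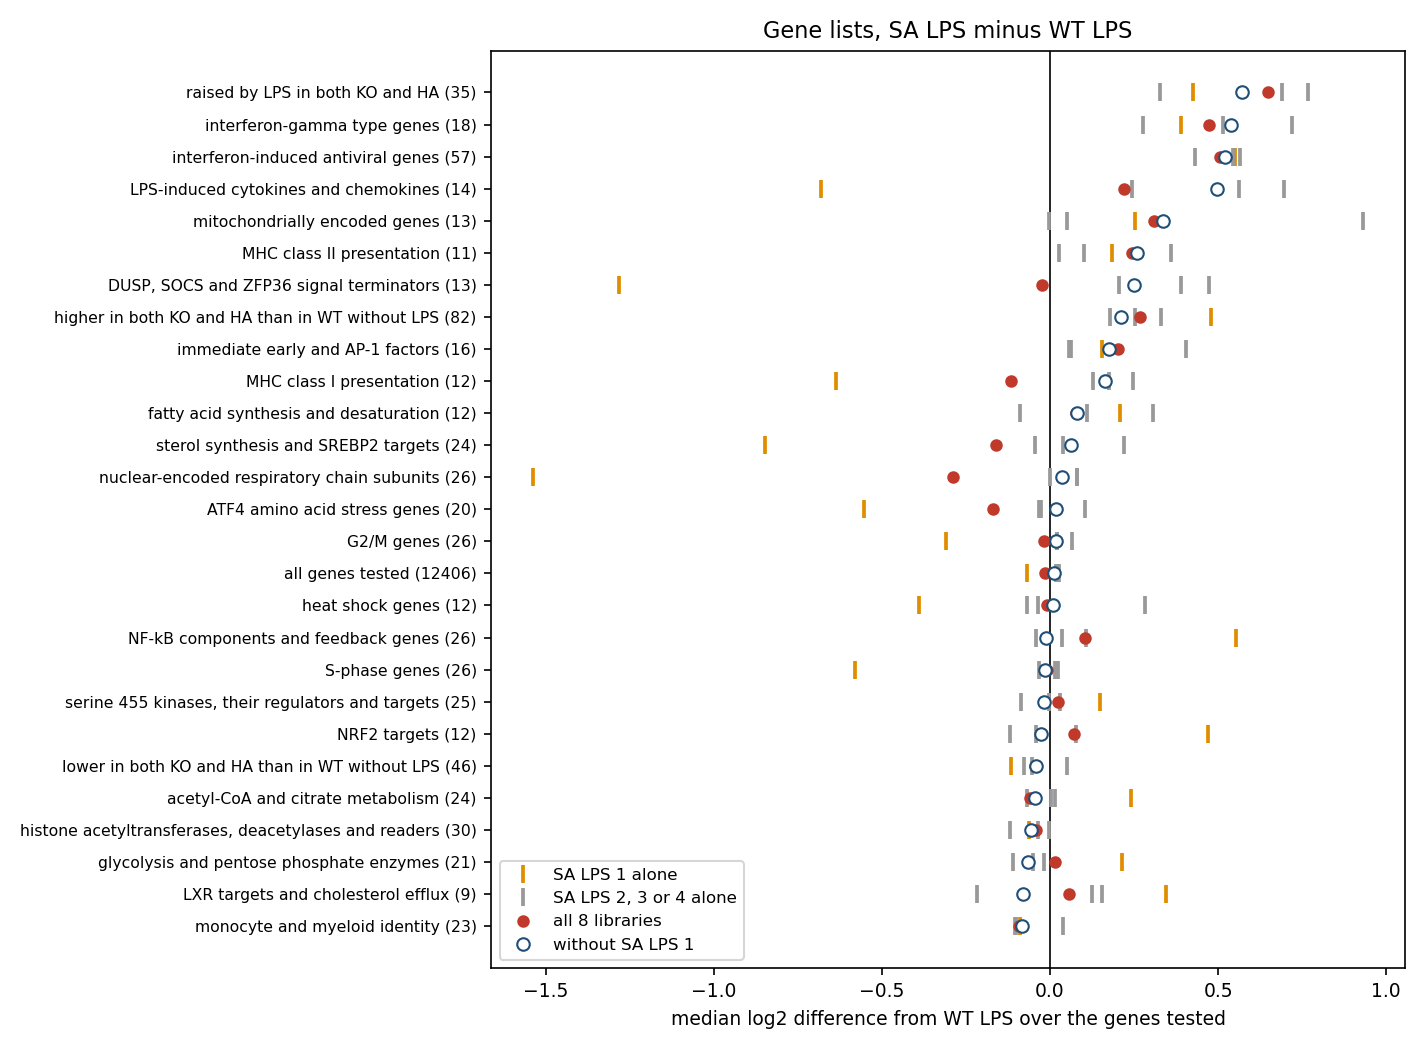
Median log2 difference of each gene list, with the number of genes tested in parentheses. Filled points are from all 8 libraries, open points are without SA LPS 1, and ticks show each SA LPS library on its own against the mean of WT LPS. The 2 interferon lists lie at 0.47 to 0.54 both ways, and the tick of SA LPS 1 lies at -1.54 for nuclear-encoded respiratory chain subunits.

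Antigen presentation genes were tested in 2 lists. Of 11 measured MHC class II genes, 0 were called by limma and 8 were positive, with a median of 0.24 with all 8 libraries and 0.26 without SA LPS 1. With all 8 libraries 47.9% of all genes tested were positive. HLA-DPA1 had 38.9, 37.3, 39.9 and 44.4 in WT LPS and 74.1, 55.2, 43 and 53.9 in SA LPS, a small overlap. HLA-DRA had 271, 345, 239 and 423 in WT LPS and 161, 318, 488 and 510.5 in SA LPS, where SA LPS 1 was the lowest and SA LPS 3 and 4 the highest. Of 12 MHC class I genes 0 were called, and the median was -0.12 with all 8 libraries and 0.16 without SA LPS 1. B2M, the light chain, had 35199.5, 27848, 22873 and 20312.5 in WT LPS and 17032, 31637.5, 22396 and 26773 in SA LPS, a difference of -0.12 (SE 0.20) within the spread of both groups. Reads of HLA genes can be shared between related members.

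ACLY itself was counted at 117, 97.1, 124 and 101 in WT LPS and 329, 100.2, 110.3 and 95.8 in SA LPS. SA LPS 2 to 4 were within the WT range or just below it, SA LPS 1 was far above, and the difference was 0.32 (SE 0.28) with all 8 libraries and -0.10 (SE 0.22) without SA LPS 1. The mean was 76.7 in KO LPS and 71.9 in HA LPS. The returned ACLY is a coding sequence in a vector, while the tags lie near the 3′ end of transcripts, so this count does not check the amount of returned ACLY. Genes that work beside ACLY had medians near 0. Of 24 measured genes of acetyl-CoA and citrate metabolism 0 were called, and the median was -0.06 with all 8 libraries and -0.05 without SA LPS 1. ACSS2, which makes acetyl-CoA from acetate, had 108, 93.6, 108 and 95.1 in WT LPS and 93.1, 109 and 88.9 in SA LPS 2 to 4, with 308 in SA LPS 1.

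Of 12 measured genes of fatty acid synthesis 0 were called, with a median of 0.08 with and without SA LPS 1. FASN, the fatty acid synthase, had 1879.5, 2386, 2439 and 2124 in WT LPS and 3930.5, 1921, 1866 and 1755 in SA LPS, a difference of 0.023 (SE 0.22) and, without SA LPS 1, of -0.25 (SE 0.20). ACSL3, which activates long-chain fatty acids, was the single member without overlap, at 1299, 1223.5, 1329.6 and 1300.4 in WT LPS and 1629, 1405, 1372.5 and 1593 in SA LPS, a difference of 0.22 (SE 0.10). Of all genes tested, 1.27% lay wholly above WT LPS. Of 24 measured sterol synthesis genes 0 were called, and the median was -0.16 with all 8 libraries and 0.06 without SA LPS 1. Of 9 measured LXR targets 0 were called, with medians of 0.06 and -0.08. ABCA1, the cholesterol exporter, had 34.4, 60.7, 52.8 and 36.5 in WT LPS and 52.1, 88, 81.3 and 94.1 in SA LPS, where SA LPS 1 lay in the WT range and the other 3 above it. ABCG1 had at most 6.0 counts in any of the 8 libraries.

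Genes of the kinases of serine 455 and their targets had medians of 0.02 with all 8 libraries and -0.02 without SA LPS 1 over 25 measured members, with 0 called. For 30 histone acetyltransferases, deacetylases and acetyl-lysine readers, users of acetyl-CoA or of its product, the medians were -0.04 and -0.06, with 0 called. KAT5 had 774, 689, 652 and 595 in WT LPS and 244, 616, 575 and 572 in SA LPS, and KAT8 had 153, 167, 179 and 181.5 in WT LPS and 69.5, 121, 171 and 156.5 in SA LPS. In both acetyltransferases SA LPS 1 was the lowest library, and the differences of -0.52 and -0.47 were -0.20 and -0.20 without it. NCOA2 pointed the other way, at 0.44 and 0.35.

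Cell cycle lists had medians near 0, of -0.01 over 26 S-phase genes and -0.02 over 26 G2/M genes, 0 called in each, and -0.02 and 0.02 without SA LPS 1. CCNE1, cyclin E1, was the only gene of both lists that did not overlap, at 376, 355.5, 430.3 and 353 in WT LPS and 162, 309, 324 and 279.6 in SA LPS, a difference of -0.54 (SE 0.17) and of -0.31 (SE 0.14) without SA LPS 1. Of all genes tested, 1.35% lay wholly below WT LPS with all 8 libraries. Glycolysis and pentose phosphate enzymes (21 measured, median 0.01 and -0.06), NRF2 targets (12 measured, 0.07 and -0.03) and heat shock genes (12 measured, -0.01 and 0.01) had 0 called each. Over 20 ATF4 target genes the median was -0.17 with all 8 libraries and 0.02 without SA LPS 1, with 0 called. With all 8 libraries 1 of them, ATF3, lay wholly above WT LPS and 1, SHMT2, wholly below, against 1.27% and 1.35% of all genes tested. SHMT2, a mitochondrial serine enzyme, had 1139, 1068, 1320.2 and 1344 in WT LPS and 538, 945, 1029 and 1066 in SA LPS.

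Nuclear-encoded respiratory chain subunits were low in SA LPS 1 and not in the other 3 SA LPS libraries. The median over 26 genes was -0.29 with all 8 libraries, with 4 positive, and 0.03 without SA LPS 1, with 15 positive, where 47.9% and 51.9% of all genes tested were positive. In that library alone it was -1.54. The 13 mitochondrially encoded genes had medians of 0.31 and 0.34, with 0 called, and the libraries of a group were far apart, since the median was 0.93 in SA LPS 4, 0.25 in SA LPS 1, -0.0024 in SA LPS 2 and 0.05 in SA LPS 3, against -0.28 to 0.47 in WT LPS. MT-CO1 had 4491, 4665, 6426 and 6538 in WT LPS and 10343, 5699, 5204 and 8743 in SA LPS.

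Over 23 genes of monocyte and myeloid identity the median was -0.09 with all 8 libraries and -0.08 without SA LPS 1, with 0 called. With all 8 libraries 10 were positive, and without SA LPS 1 6 were, against 47.9% and 51.9% of all genes tested. Without SA LPS 1, 4 lay wholly below WT LPS and 1 wholly above, against 3.62% and 3.24% of all genes tested. CD14, the LPS co-receptor, had 47.9, 59, 59.8 and 57.1 in WT LPS and 40.5, 37.9, 40.6 and 34.2 in SA LPS, lower in every SA LPS library, with a difference of -0.53 (SE 0.26). S100A12, a calcium-binding alarmin, had 651, 624, 680.0 and 685.5 in WT LPS and 620.5, 551, 613 and 624 in SA LPS, groups that touched without overlap and differed by -0.13 (SE 0.12). Of the 2 markers of other cell types that were measured, 0 were free of overlap with all 8 libraries and 1 was lower in SA LPS 2 to 4 than in WT LPS. Their part in the results was not tested. AKR1C2 had 76.3, 75.4, 83.2 and 53.9 in WT LPS and 73.8, 72 and 54.7 in SA LPS 2 to 4, and BEX1 had 573, 529, 477 and 563 in WT LPS and 411, 432 and 370.2 in SA LPS 2 to 4, with 3.5 and 602 in SA LPS 1.

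On the lower side the genes with the smallest p were single genes rather than members of 1 list. They were picked from genes whose SA LPS and WT LPS counts did not overlap, with or without SA LPS 1. Their lack of overlap was therefore fixed by the choice. Of all genes tested, 1.35% lay wholly below WT LPS with all 8 libraries and 3.62% did for SA LPS 2 to 4. MACROD2 (chromosome 20, 13995369 to 16053197, plus strand), a hydrolase that removes mono-ADP-ribose, had 32.9, 31.2, 56.3 and 33.3 counts in WT LPS and 15.1, 5.1, 2.3 and 4.3 in SA LPS. It was lower in every SA LPS library, with a difference of -2.57 (SE 0.66) with all 8 libraries and -3.01 (SE 0.68) without SA LPS 1, and it was the lower gene called under the library weights (adjusted p = 0.000994, limma). The same gap was there without LPS, at 28.6, 31, 58.2 and 36.8 in WT and 5, 3.6, 3.3 and 3.8 in SA. DACH1 (chromosome 13, 71437966 to 71867204, minus strand), a transcriptional corepressor, had 50.9, 64.2, 93.8 and 80.0 in WT LPS and 0, 40.5, 36 and 29.9 in SA LPS, with 61.5, 77, 81.8 and 93.6 in WT and 35.7, 20.5, 32.1 and 34 in SA without LPS. Its difference was -2.27 (SE 0.66) with SA LPS 1, which had no read, and -0.98 (SE 0.30) without it.

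HIC2, a zinc-finger repressor, was lower in every SA LPS library, as the choice of genes required, while the groups overlapped before LPS. It had 597, 675, 746 and 640.3 in WT LPS and 345, 505, 506 and 455 in SA LPS, but 663, 656, 455 and 619 in WT and 682.5, 747, 556 and 878 in SA, and the difference was -0.56 (SE 0.16) with LPS and 0.26 (SE 0.16) without. The choice did not use the unstimulated libraries, so whether the difference changed with LPS cannot be read from this contrast. CEBPA-AS1, an antisense RNA of CEBPA, had 138, 101, 141 and 120.5 in WT LPS and 25.5, 74.5, 80.1 and 84.6 in SA LPS, and how strand was used in counting is not given in the sources used here. ITPK1, an inositol phosphate kinase, had 405.5, 376, 370.5 and 370.1 in WT LPS and 203, 289, 308 and 306 in SA LPS. In both genes SA LPS 1 was the lowest library and the other 3 SA LPS libraries were also below WT LPS.

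ZNF239 and CHI3L1 were lower without a pull from SA LPS 1. ZNF239 had 55.4, 52, 58.6 and 62.6 counts in WT LPS and 37, 30.8, 38.3 and 34.2 in SA LPS, a difference of -0.69 (SE 0.21) and of -0.72 (SE 0.22) without SA LPS 1. CHI3L1, a secreted chitinase-like protein with an abundant transcript, had 12971, 11713, 13439 and 11471 in WT LPS and 10083, 9514, 10341 and 9143 in SA LPS, a difference of -0.34 (SE 0.12). NR2F6, an orphan nuclear receptor, had differences of -0.54 and -0.56, ZSCAN26 of -0.94 and -0.86, and the long non-coding RNA AL109811.2 of -1.27 and -0.71, with and without SA LPS 1. None of the 3 overlapped, which was part of how they were chosen. ZNF34 was lower in SA LPS 2 to 4 alone, at 13.5, 15.6, 18.8 and 25.4 in WT LPS and 28.9, 9.6, 3.5 and 8.6 in SA LPS.

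**Figure D5:**
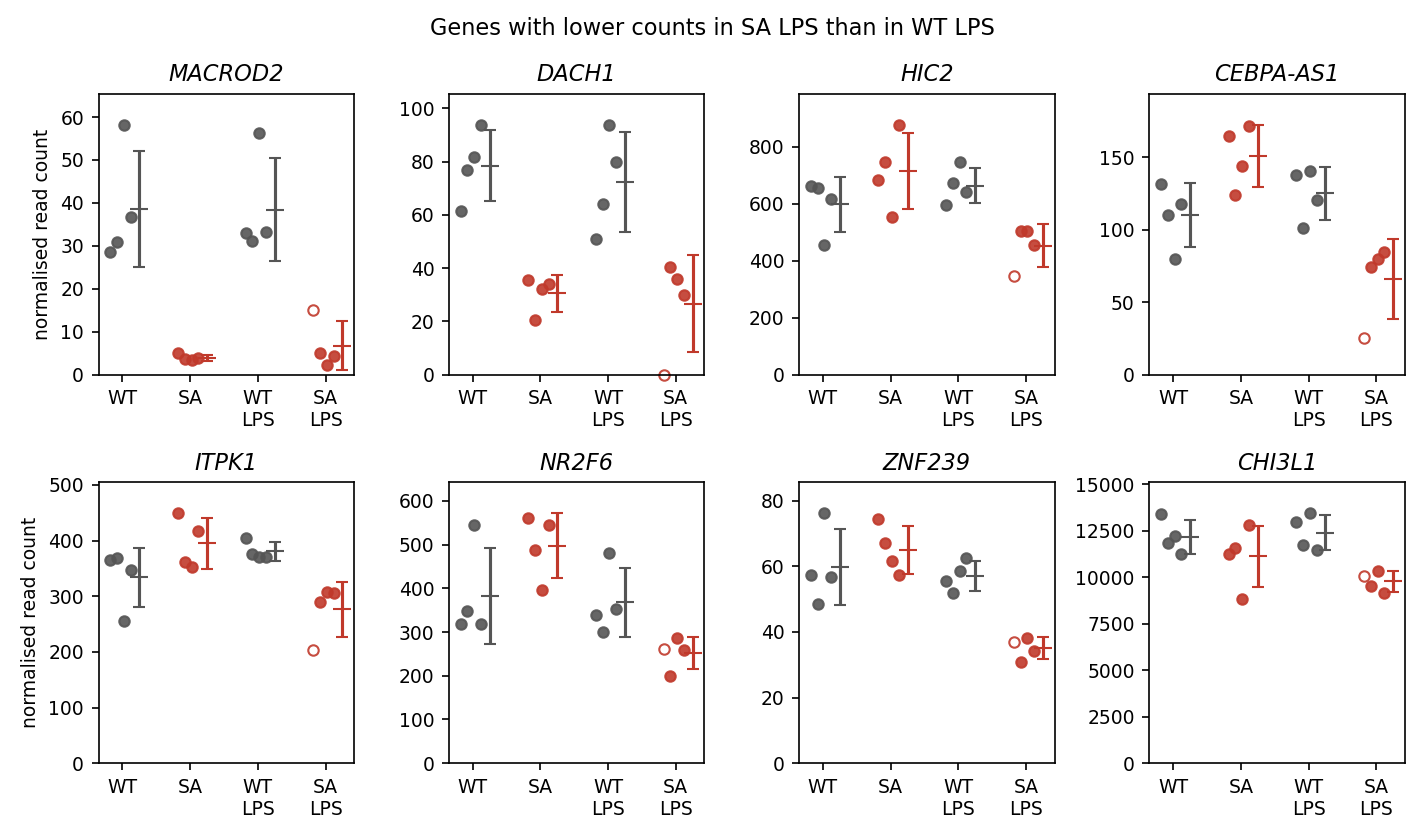
Normalised read counts of 8 genes that were lower in SA LPS, in the 4 libraries of each of WT, SA, WT LPS and SA LPS. Points are libraries, the open point is SA LPS 1, and the horizontal mark with bars is the mean and SD. MACROD2 and DACH1 are lower in SA with and without LPS, and for the other 6 genes WT and SA overlap without LPS. The genes were chosen by their LPS libraries, so the contrast with the unstimulated libraries is no test of an effect of LPS.

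SA LPS 1 was far below its group in many genes and far above it in others. Compared with the mean of SA LPS 2 to 4, 555 of the 9576 genes were over 8-fold lower in it and 55 over 8-fold higher, and 73 had no read. RPS7, a ribosomal protein of the small subunit, had 50.9, 11859, 13711 and 15347 counts in SA LPS 1 to 4 and 13247.5, 15236.5, 2088 and 12111 in WT LPS, so that WT LPS 3 was low as well. HSPA1B had 0, 194, 151 and 308 in SA LPS and 325, 153.5, 61 and 236 in WT LPS, and MAT2A, which makes S-adenosylmethionine, had 0, 281, 426 and 445 in SA LPS and 344, 449, 129 and 408 in WT LPS. In these 3 genes WT LPS 3 was the lowest of its group. On the higher side ANAPC2, a subunit of the anaphase-promoting complex, had 879, 53.9, 29 and 35.9 in SA LPS. MTRNR2L3, a nuclear copy of mitochondrial sequence that may share reads with the mitochondrial original, had 1630.1, 43.7, 20.9 and 58.1, and TAPBP, which loads MHC class I, had 17262, 4303, 4737.5 and 4190.5.

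Without LPS, the same 2 lines were compared in their 8 unstimulated libraries. limma called 0 of 12406 genes, 0 higher (0%) and 0 lower (0%) in SA, with 445 at an unadjusted p below 0.05, and again 0 genes in the fit from which SA LPS 1 was left out, with 716. SA 1 had the most reads of its group, 14724448, but reads on only 16474 genes, against 17501 to 18139 in SA 2 to 4. Ribosomal protein genes gave 12.112% of its reads, against 14.263 to 14.781% in SA 2 to 4. No fit without SA 1 was run for this comparison or for the LPS responses, and its part was not tested. The interferon-induced antiviral list had a median difference of 0.31 and 46 of 57 genes positive, against a median of -0.01 over all genes. IFI44L had 416.5, 365, 438 and 522.5 in WT and 598, 558, 763 and 686 in SA, and IFIH1 had 220.4, 181, 279 and 346 in WT and 514, 393, 371 and 429 in SA, and in both the groups did not overlap. MX1 had 833, 803, 1477 and 1160.4 in WT and 2279.6, 2013, 1402 and 2593 in SA, with overlap. Other leading genes overlapped as well. IFIT2 had 35.8, 50.2, 71.7 and 44.6 in WT and 29.4, 58, 83 and 97.1 in SA, and CXCL11 had 5.7, 10.9, 9 and 30.6 in WT and 18.1, 24.1, 29.6 and 14.1 in SA. GBP1 had 18.6, 17.6, 17.9 and 37.6 in WT and 26.3, 52.7, 49.3 and 53.8 in SA.

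The difference of the LPS responses, (SA LPS minus SA) minus (WT LPS minus WT), called 0 of 12406 genes with all libraries (0%) and 0 without SA LPS 1 (0%) in limma, with 457 and 496 genes at an unadjusted p below 0.05. The smallest adjusted p of these limma fits was 0.997 with all libraries and 0.889 without SA LPS 1. Over the interferon-induced antiviral list its median was 0.23 with and without SA LPS 1, and over the interferon gamma list 0.30 and 0.33, against -0.02 and 0.01 over all genes. It was 0.93 (SE 0.44) for IFIT2, 0.85 (SE 0.30) for ATF3, 1.15 (SE 0.61) for CXCL10 and 0.39 (SE 0.42) for GBP1. For IFI44L, whose groups were already apart before LPS, it was 0.068 (SE 0.29), and for MX1 -0.26 (SE 0.41). For HIC2 it was -0.82 (SE 0.22) and for CEBPA-AS1 -1.50 (SE 0.41). These 2 genes were chosen for low counts in SA LPS, which enter this difference, so its size in them was partly set by the choice. All single-gene values of this difference include SA LPS 1, the lowest SA LPS library of HIC2 and CEBPA-AS1.

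A further 3 lists were taken from libraries outside the comparison, namely those of the KO and HA lines and, for the last 2, the unstimulated WT libraries. By limma at an adjusted p below 0.01 and a log2 difference of at least 1 in both lines, LPS raised 35 genes in both KO and HA (0.282% of the genes tested). Of these 35, 33 were higher in SA LPS than in WT LPS and 34 without SA LPS 1, with medians of 0.65 and 0.57, and 12 and 21 did not overlap, against 47.9% and 51.9% higher and 1.27% and 3.24% without overlap on the higher side over all genes tested. None was called, and 14 of the 35 are also in the interferon lists. In KO and HA without LPS 82 genes were higher than in WT (0.661%). In SA LPS 62 of them were higher than in WT LPS and 58 without SA LPS 1, with medians of 0.27 and 0.21, against the same shares over all genes, and 23 are in the interferon lists. Of the 82, 17 lay wholly above WT LPS and 2 wholly below with all 8 libraries, and 23 and 4 did without SA LPS 1. The 46 genes that were lower in KO and HA than in WT (0.371%) had medians of -0.04 with and without SA LPS 1, and 18 of them were positive with all 8 libraries. Of the 46, 0 lay wholly above WT LPS and 4 wholly below with all 8 libraries, and 2 and 7 did without SA LPS 1. Over all genes tested 1.35% lay wholly below with all 8 libraries and 3.62% without SA LPS 1.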

How the data were processed

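RNA from 32 THP-1 cultures was sequenced from the 3′ end. In the authors' pipeline, Bbduk did the trimming, STAR the alignment (GRCh38) and HTSeq-count the counting. Versions and the annotation release are not given in the sources used here. The deposited values, a unit of their own, are counts normalized by the authors separately for each line, replicates not pooled. Whole reads were recovered from them (100.0% of values whole within 0.05 reads) and rescaled with median-of-ratios factors over all 32 libraries. Of 60199 rows, 92 spike-in rows were left out, and no column of samples was unused. Gene IDs were matched to GENCODE v44 for positions (12297 of 12406 tested).

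Groups came from the labels. The main fit used limma 3.58.1 in R 4.3.3 (eBayes with trend) on log2(count + 1), genes with a mean of at least 10, means for the 8 groups and Benjamini-Hochberg adjustment, and was checked on simulated data. Those data gave a gene the same spread in every library, so the check does not cover a library as far off as SA LPS 1. The planned count models were not run on the recovered reads, so the number of genes called comes without a count test. Samples of 1 line measure the spread between these samples, and intervals of counting error were not computed, since reads without molecular identifiers are not independent molecules. No library copied another of its group (chi-square per gene 6.1 or more). Named genes were the 8 higher and 8 lower genes of smallest p without overlap, with and without SA LPS 1, the 8 most and 8 least abundant in SA LPS 1 relative to its group, up to 3 members of each list and a fixed set. Some genes were chosen after their values were seen, and some items are not reported here. The members and lists were chosen with earlier results of these data known.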

Additional observations from a re-analysis of the deposited data

Results flagged for a closer look

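In a group of 4, a library is named here where its gap to the nearest other library, divided by the range of the group, was above Dixon's 95% critical value. Of the 158 sets of 4 values 26 gave one, 17 of them through SA LPS 1 and 5 through WT LPS 3. Chance alone gives about 1 in 20 such groups, but that rate is no reference here, since some of the genes were named for their distance in SA LPS 1.

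SA LPS 1 was the high library of ACLY (328.8 counts), CIITA (98.4), MX1 (5811.8), ISG15 (6834.0), STAT2 (570.8), CCL3 (2794.7), TNFAIP3 (4894.8), TAPBP (17261.6), FASN (3930.5), ACSS2 (308.0), MTRNR2L3 (1630.1) and ANAPC2 (878.7). It was the low library of IFI44L (684.2 counts), NMI (1055.8), CEBPA-AS1 (25.5) and KAT5 (244.3), and of the share of reads from ribosomal protein genes (8.739%). WT LPS 3 was the high library of TNFSF10 (501.8 counts), MACROD2 (56.3), CCL3 (654.2) and TAPBP (6535.2), and the low one of the ribosomal protein share (13.654%). CCL3 and TAPBP were thus high in both of these libraries.

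The other 4 were CXCL11, low in WT LPS 2 (204.6 counts), IFIT2, low in SA LPS 4 (978.2), EPSTI1, low in SA LPS 3 (413.4), and S100A12, low in SA LPS 2 (550.9). In IFIT2 and EPSTI1 that low library was still above every WT LPS library.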

How the results depend on the processing

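Count tests (the edgeR and DESeq2 fits) and TMM factors, planned as alternatives, were not run. voom weights and upper-quartile factors, chosen after seeing the data, stood in for them. The number of genes called was 0 under all settings but 3. Library weights gave 12 with all libraries and 12 without SA LPS 1, and the 15 SA and WT libraries without SA LPS 1 gave 1, lower in SA LPS. Leaving out any 1 library gave 0. Correlations of same-numbered deviations were -0.334, 0.418, -0.411 and 0.22. They cannot decide whether replicate numbers pair the samples, since SA LPS 1 and WT LPS 3, far from their groups, correlated with each other at 0.537. With the replicate number as a block the counts were 0 for the 8 and 0 for the 7 libraries compared. At an unadjusted p below 0.05 there were 92 and 712 genes with the block, and 164 and 438 in the same libraries without it. At a limit of 0.05 the count stayed 0 in the limma fit to all groups. At 0.05 there were 18 genes with and 12 without SA LPS 1 on the deposited scale, 16 and 15 with library weights, and, without SA LPS 1, 1 each with only the 7 libraries compared, with voom weights on those 7 and with the 15 SA and WT libraries. On the deposited scale, set separately for each line, the median of all genes moved from -0.02 to 0.25, and differences there are to be read against that shift. Of 76 named genes, 56 kept their direction under all 21 settings. With library weights the sign turned for ACLY (-0.042), CIITA (-0.088), DTX3L (0.12), NMI (0.28), IFITM1 (0.53), TAPBP (-0.060), FASN (-0.22), ACSS2 (-0.028) and RPS7 (0.11). With SA LPS 1 and WT LPS 3 left out together the sign turned for ACLY (-0.040), CIITA (-0.082), DTX3L (0.15), NMI (0.31), IFITM1 (0.38), TAPBP (-0.037), FASN (-0.20), ACSS2 (-0.029) and RPS7 (0.010). On the deposited scale the sign turned for DTX3L (0.18), NMI (0.26), B2M (0.14), S100A12 (0.13) and BEX1 (0.0076). With a pseudocount of 5 the sign turned for IFITM1 (0.066). With voom weights the sign turned for FASN (-0.011). With voom weights and only the 8 libraries compared the sign turned for FASN (-0.0088). Leaving out 1 library at a time gave differences of -0.10 to 0.49 for ACLY, -0.090 to 0.86 for CIITA, -0.20 to 0.10 for DTX3L, -0.10 to 0.19 for NMI, -0.92 to 1.05 for IFITM1, -0.68 to 1.40 for CCL2, -0.040 to 0.65 for CCL4, -1.91 to 0.028 for IL23A, -0.14 to 1.01 for CXCL8, -0.093 to 0.46 for HLA-DRA, -0.26 to 0.038 for B2M, -0.17 to 0.51 for TAPBP, -0.25 to 0.14 for FASN, -0.060 to 0.53 for ACSS2, -2.05 to 0.68 for RPS7, -2.41 to 0.34 for HSPA1B, -2.61 to 0.32 for MAT2A and -0.056 to 1.57 for ANAPC2, and leaving out SA LPS 1 turned the sign of 14 of these. The cause was not tested. The median of the interferon-induced antiviral list ran from 0.47 to 0.77 over all settings, the highest on the deposited scale.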
